A study of Mus musculus with 14 samples.

Results

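The genes that encode the receptors for glutamate and for gamma-aminobutyric acid (GABA) were followed through the differentiation of mouse oligodendrocyte precursor cells (OPCs). Members were taken by symbol, as every gene of the deposited table named Gria, Grik, Grin or Grid with a number, Grm with a number, or any Gabr or Gabbr, which gave 48 of 23427 genes. Of these, 22 reached an FPKM (fragment number scaled to exon length and to the total of mapped fragments) of at least 1 in 2 or more of the 14 libraries, and 26 did not. The 22 were all 4 AMPA receptor genes, all 5 kainate receptor genes, all delta receptor genes and both GABA-B receptor genes, but 2 of 7 NMDA receptor genes, 2 of 8 metabotropic glutamate receptor genes and 4 of 19 GABA-A receptor genes. The remaining member, Grid2ip, matched by its symbol, although it encodes a protein that binds delta receptors and is no receptor itself.

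Primary OPCs of wild-type C57BL/6J mice were immunopanned, that is, captured on antibody-coated dishes, from pooled cortices of pups at postnatal day 7, and they were sequenced at Day0 and at Day3 after growth factor withdrawal and addition of the thyroid hormone T3. Messenger RNA was measured in 7 groups with 2 libraries each. At Day0 the cells were OPCs, and at Day3 the cells were non-treated, mock-transfected, or transfected with NC siRNA #1 or NC siRNA #2 (both non-targeting), with siSbp2l (against Secisbp2l, an RNA-binding protein) or with siPdgfra (against the PDGF receptor by which the cells had been captured). All groups were wild type. The labels describe a medium with serum and the methods a defined medium, and which of these the libraries came from was not given in the sources used here.

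Ionotropic glutamate receptors are cation channels, and they are divided into AMPA, kainate and NMDA receptors, with the delta receptors as relatives that glutamate does not open. Metabotropic glutamate receptors and GABA-B receptors act through G proteins, whereas GABA-A receptors are chloride channels. OPCs receive synapses from axons and are known to respond to both transmitters, and these responses are known to change when the cells leave the cell cycle and mature.

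Promoter sequence from RefSeq (GRCm38.p6) was found for 33 of the 48 genes, 14 of them among the 22. The 250 bases before the annotated start are shown for 4 genes that were higher at Day3 than at Day0 (Grm7, Gabbr2, Gabbr1 and Grik2) and for Gabrg1, which was lower at Day3 in the mock comparison, to show the range of base composition among these starts. The 2 starts of Grid2ip, which was called lower in non-treated cells, are GC-rich as well, with 67.6% and 64.4% G and C, and hold GC boxes. The sequences read 5′ to 3′ along the gene, and capitals mark GC boxes (GGGCGG or its reverse complement).
Grm7: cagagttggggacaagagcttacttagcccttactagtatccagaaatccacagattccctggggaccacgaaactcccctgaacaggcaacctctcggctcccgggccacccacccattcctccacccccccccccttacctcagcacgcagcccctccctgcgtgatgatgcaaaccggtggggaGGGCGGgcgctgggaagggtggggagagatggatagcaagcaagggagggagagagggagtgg
Gabbr2: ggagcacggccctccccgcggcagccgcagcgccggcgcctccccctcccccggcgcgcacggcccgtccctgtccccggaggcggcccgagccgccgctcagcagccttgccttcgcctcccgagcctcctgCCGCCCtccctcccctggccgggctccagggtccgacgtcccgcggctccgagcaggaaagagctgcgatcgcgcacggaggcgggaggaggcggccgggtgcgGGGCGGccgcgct
Gabbr1: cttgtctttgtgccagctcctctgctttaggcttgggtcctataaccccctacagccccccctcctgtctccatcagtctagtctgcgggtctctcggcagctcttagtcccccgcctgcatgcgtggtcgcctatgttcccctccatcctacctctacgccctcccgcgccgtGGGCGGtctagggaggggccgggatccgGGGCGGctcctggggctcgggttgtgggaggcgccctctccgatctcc
Grik2: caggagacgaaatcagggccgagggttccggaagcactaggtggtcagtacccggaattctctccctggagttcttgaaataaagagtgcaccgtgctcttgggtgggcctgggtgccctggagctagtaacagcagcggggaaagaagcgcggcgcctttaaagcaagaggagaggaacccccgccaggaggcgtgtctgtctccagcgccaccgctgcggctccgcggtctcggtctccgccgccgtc
Gabrg1: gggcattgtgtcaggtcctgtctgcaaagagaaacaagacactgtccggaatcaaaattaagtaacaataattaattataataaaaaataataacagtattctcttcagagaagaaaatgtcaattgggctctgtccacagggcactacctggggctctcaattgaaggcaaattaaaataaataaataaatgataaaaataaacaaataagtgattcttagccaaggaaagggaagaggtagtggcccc
They lie at chr6:110645262-110645511, plus strand (Grm7, the outer of 2 RefSeq starts, 86 bases before the start in the deposited table), chr4:46991715-46991964, minus strand (Gabbr2), chr17:37045716-37045965, plus strand (Gabbr1), chr10:49788755-49789004, minus strand (Grik2) and chr5:70842618-70842867, minus strand (Gabrg1). G and C made up 80.8% of the Gabbr2 sequence, which holds 37 CpG dinucleotides, and 35.6% of the Gabrg1 sequence, which holds 1. Grm7 was at 62.0%, Gabbr1 at 66.0% and Grik2 at 62.8%. The median over the 41 promoters of receptor genes was 60.4%, beside 52.4% over all 32841 promoters of the same length. A GC box was present in 48.8% of the receptor promoters and in 32.7% of all promoters. The other motifs searched on both strands were TATAAA (the TATA box, 9.76% of receptor promoters and 12.4% of all), AGGTCA (the half-site of nuclear receptors such as the T3 receptor, 4.88% and 14.03%) and CTTTGA (the TCF/LEF core, 9.76% and 13.8%), and none of these occurs in the 5 sequences shown. Gabra3, not shown, was also called lower at Day3 and has 2 RefSeq starts, with 39.2% and 42.4% G and C. Their sequences overlap and hold the same TATA box and the same TCF/LEF core. These starts lie 561 and 673 bases from the start in the deposited table.

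The libraries held 6560826 to 31621276 fragments by the steps between low FPKM values, and NC siRNA #2 replicate 2 was the shallowest. Secisbp2l was at 3.91 and 3.82 FPKM in the siSbp2l libraries and Pdgfra at 3.30 and 2.69 FPKM in the siPdgfra libraries, both below every other Day3 library, where Secisbp2l was at 135 FPKM or more and Pdgfra at 32.4 FPKM or more. The non-treated libraries stood further apart than any other pair, with a standard deviation of 0.457 between their log2 values beside 0.148 to 0.1995 in the other 6 groups, although none of the 22 members above the minimum differed by over 2-fold between them. All 9 OPC markers and 9 oligodendrocyte (OL) markers were above the FPKM minimum. Summed OL marker FPKM was 731 to 812 at Day0, 6944 to 10250 in the 8 control libraries of Day3, 2771 to 2969 in siSbp2l and 5199 to 5963 in siPdgfra. Of 13 neuronal markers, 8 passed the minimum, chiefly Tubb3, and Slc17a6 was at 0 in all libraries. Their summed FPKM was 57.9 to 60.3 at Day0, 81.0 to 311 in the Day3 controls, 236 to 239 in siSbp2l and 262 to 266 in siPdgfra. Astrocyte markers (7 of 9 above the minimum) summed to 68.6 to 76.5 at Day0, 90.7 to 155 in the Day3 controls, 116 to 122 in siSbp2l and 42.9 in both siPdgfra libraries. Of 7 microglial markers 1 passed, P2ry12, and none of 6 endothelial markers did. In bulk samples of this kind, fewer cells of a type and less RNA per cell cannot be told apart.

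At Day0 the receptor transcripts were dominated by a few subunits, and FPKM, which is scaled to exon length, allows their levels to be set side by side. Gria2 (AMPA subunit GluA2, whose edited form makes the channel nearly impermeable to calcium) was the highest member in every library, at 55.2 and 60.9 FPKM at Day0 and 72.9 to 144 in the Day3 controls. Among the others named here, the highest at Day0 were Grik3 (28.5 and 28.3), Gria3 (23.9 and 26.9), Grik5 (28.0 and 21.4), Gria4 (18.9 and 20.6), Grm5 (18.2 and 18.1) and Gabrg1 (15.4 and 14.8), and of these Gria3 and Grik5 cannot be put in order, since the Grik5 libraries lie on both sides of those of Gria3. Grid1, Grik2 and Gabbr1 were at 3.72 to 5.39 FPKM, and Grik1, Grin3a, Grik4, Grid2ip, Gabra3, Gabra2 and Grin1 at 1.32 to 3.31 FPKM. Grm7, Gria1 and Gabbr2 were each under 0.2 FPKM at Day0, with 13 and 9 fragments behind the Grm7 values, 32 and 21 behind Gria1 and 22 and 14 behind Gabbr2.

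**Figure D1:**
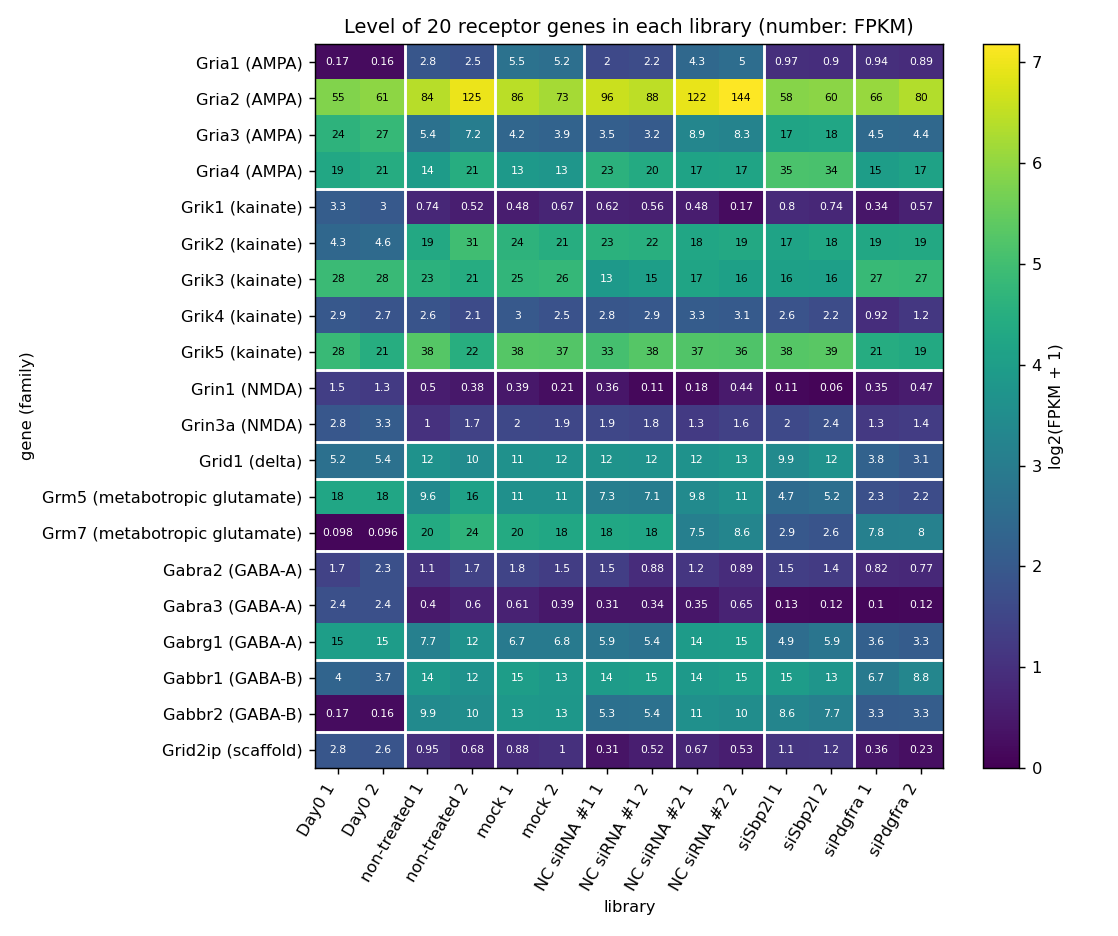
FPKM of 20 of the 22 receptor genes (rows, by family) in the 14 libraries (columns), with the FPKM printed in each cell and the colour showing log2(FPKM + 1). Gria2 is the brightest row in every library, and Grm7, Gabbr2 and Gria1 are darkest at Day0.

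The 26 members under the minimum stayed below 1 FPKM in all 14 libraries. The 3 highest of them were Grm8, which reached 0.857 FPKM, Gabrg3 with 0.770 and Grin3b with 0.663, and for Grin3b 32.1% of the exon bases are shared with Tmem259. Gabra6, Gabrp, Gabrq and Gabrr3 were listed at 0 in all libraries, and a count of 0, which allows up to 3 fragments, leaves room for 0.139 to 0.314 FPKM in the shallowest library. The classical NMDA receptor subunits Grin2a, Grin2b, Grin2c and Grin2d, which pair with Grin1, reached at most 0.574, 0.0854, 0.0518 and 0.124 FPKM.

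GABA-A genes lie in clusters, and neighbours within a cluster were at different levels. On chromosome 5, Gabrg1 (chr5:70751047-70842617, mm10) was at 3.28 to 15.4 FPKM over the 14 libraries and its neighbour Gabra2 (chr5:70961057-71095849) at 0.774 to 2.34, whereas Gabra4 (chr5:71569734-71658308) and Gabrb1 (chr5:71700016-72137244) stayed at or below 0.238 and 0.129. On chromosome X, Gabra3 (chrX:72432676-72656246) was the only one of Gabre, Gabra3 and Gabrq to pass the minimum.

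The first question was which receptor genes changed between Day0 and Day3. Differences were tested with limma on log2(FPKM + 1), with all 14 libraries in 1 fit of 11874 genes and Benjamini-Hochberg adjustment over all of them, and a gene was called at a 2-fold difference on that scale with an adjusted p under 0.05. Because 1 is added, differences of genes near or below 1 FPKM are understated. Of the 22 genes tested, 6 were called higher and 4 lower in the non-treated comparison, beside 11.4% of all genes called higher and 15.2% called lower. In the mock comparison 6 were called higher and 4 lower as well, beside 12.2% and 14%. Both comparisons share the Day0 libraries. Grm7, Gabbr2, Grik2, Gria1 and Gabbr1 were among those that rose in both, and Gria3 fell in both. Grik1 and Gabra3 were called lower in both too, but they reached the minimum in the Day0 libraries alone, so that this direction was fixed by the filter and is given as a description. Without either Day0 replicate 19 genes were tested, and 6 were called higher and 2 lower in each comparison. Grm7, Gabbr2 and Gria1, which are among the 6 called higher, in turn reached the minimum in Day3 libraries alone. Their direction was likewise fixed by the filter, and their differences between the days are given as a description. The median difference over the 22 genes was -0.166 (non-treated) and -0.072 (mock), close to the medians of -0.116 and -0.070 over all genes. Median-ratio scaling, which brings the all-gene median to -0.011 and -0.003, changed the split to 7 higher and 3 lower in both comparisons. The SE rests on the spread pooled over all groups, although the non-treated libraries stood further apart than the others. With only the compared groups fitted, members lower by adjusted p alone went from 9 to 6 in non-treated cells and stayed at 9 in mock. The methods name different sequencers for the differentiation series and the knockdown series. The Day0 libraries used here were deposited with the knockdown series, but the sequencer of each library is not given in the sources used here. If the Day0 libraries were run apart from the others, sequencer and day cannot be told apart.

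Metabotropic receptors showed the largest difference. Grm7 (mGlu7, a receptor of the presynaptic side in neurons) was at 0.0983 and 0.0957 FPKM at Day0, 20.0 and 24.3 in non-treated cells, 20.1 and 18.3 in mock, 18.2 and 17.8 in NC siRNA #1 and 7.52 and 8.64 in NC siRNA #2. All 8 control libraries lay far above Day0, and the difference of log2(FPKM + 1) was 4.39 ± 0.111 (SE) in non-treated cells and 4.20 ± 0.111 (SE) in mock. In FPKM itself this was a ratio of 228 and 198. These values are a description, since Grm7 passed the minimum through Day3 alone. Grm5 (mGlu5, which signals through phospholipase C) was instead at its highest at Day0, with 18.2 and 18.1 FPKM, against 9.60 and 16.3 in non-treated and 11.1 and 11.3 in mock cells, and its differences of -0.50 ± 0.176 (SE), adjusted p = 0.0261 and -0.65 ± 0.176 (SE), adjusted p = 0.00674 passed the adjusted p but not the 2-fold threshold. Grm5 thus made up 98.8 and 98.5% of the summed metabotropic FPKM at Day0, and Grm7 made up 66.4 and 59.2% in non-treated cells, 63.6 and 60.7% in mock, 69.9 and 69.9% in NC siRNA #1 and 41.1 and 41.4% in NC siRNA #2. In NC siRNA #2 Grm5 was the larger, at 53.7 and 53.1%.

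GABA-B receptors are obligatory pairs of Gabbr1, which binds GABA, and Gabbr2, which couples to the G protein and brings the receptor to the cell surface. Gabbr2 was at 0.174 and 0.156 FPKM at Day0, 9.88 and 10.4 in non-treated cells, 13.2 and 13.0 in mock, 5.30 and 5.37 in NC siRNA #1 and 11.0 and 10.4 in NC siRNA #2. It rose by 3.26 ± 0.089 (SE, non-treated) and 3.60 ± 0.089 (SE, mock) on the log2 scale, from a level near 0. This rise is a description, since Gabbr2 passed the minimum through Day3 alone. Gabbr1 was already present at Day0, at 4.02 and 3.72 FPKM, and was at 13.8 and 11.7 in non-treated and 14.8 and 13.2 in mock cells (1.49 ± 0.131 (SE), adjusted p = 1.66e-06, and 1.62 ± 0.131 (SE), adjusted p = 8.1e-07). The share of Gabbr2 in the summed FPKM of the pair went from 4.15 and 4.02% at Day0 to 41.8 and 47.3% in non-treated, 47.1 and 49.6% in mock, 26.8 and 26.5% in NC siRNA #1 and 44.4 and 41.3% in NC siRNA #2.

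**Figure D2:**
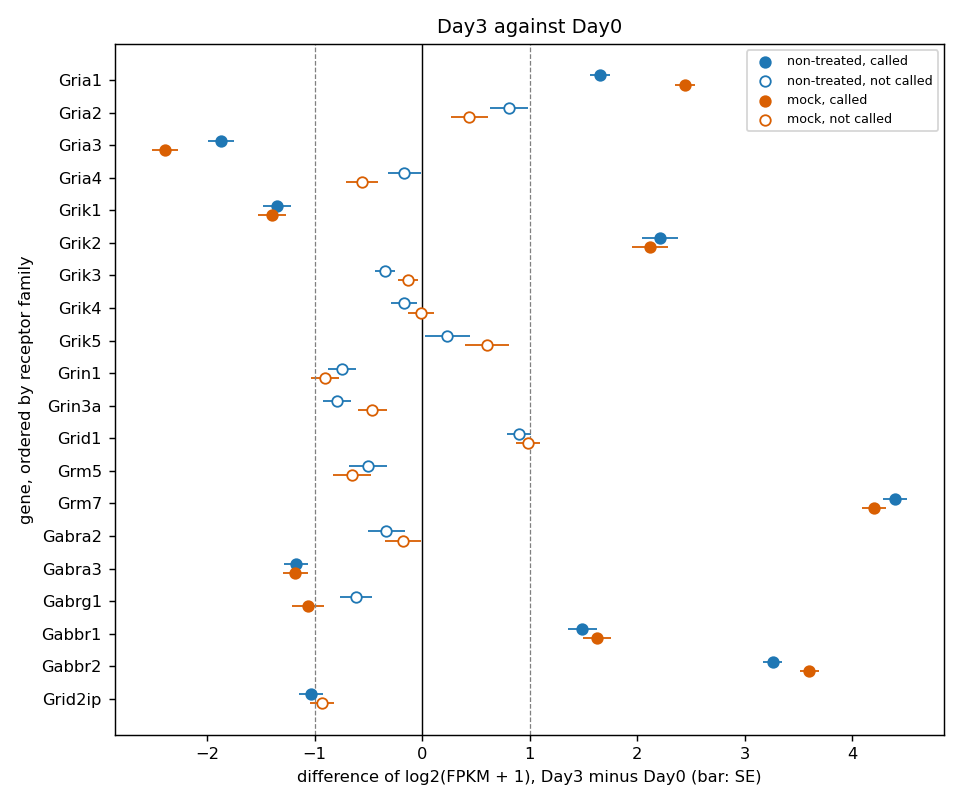
Difference of log2(FPKM + 1) between Day3 and Day0 for 20 of the 22 receptor genes in non-treated (blue) and mock (orange) cells, with bars for the SE, n = 2 libraries a group. Filled points are genes called (2-fold and adjusted p under 0.05), dashed lines mark 2-fold, and Grm7 and Gabbr2 lie furthest to the right while Gria3 lies furthest to the left.

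Among AMPA receptor genes, Gria1 rose and Gria3 fell. Gria1 (GluA1) was at 0.171 and 0.157 FPKM at Day0, 2.81 and 2.53 in non-treated, 5.47 and 5.18 in mock, 2.01 and 2.19 in NC siRNA #1 and 4.35 and 4.98 in NC siRNA #2. Its differences of 1.65 ± 0.093 (SE, non-treated) and 2.44 ± 0.093 (SE, mock) are a description, since it passed the minimum through Day3 alone. Gria3 (GluA3) was at 23.9 and 26.9 FPKM at Day0, 5.37 and 7.19 in non-treated, 4.20 and 3.88 in mock, 3.49 and 3.19 in NC siRNA #1 and 8.89 and 8.31 in NC siRNA #2, and it fell by 1.87 ± 0.121 (SE, adjusted p = 1.1e-07) and 2.39 ± 0.121 (SE, adjusted p = 1.41e-08) on the log2 scale. Every control library of Day3 lay above both Day0 libraries for Gria1 and below both for Gria3. Gria2 passed the adjusted p without reaching 2-fold (0.81 ± 0.175 (SE), adjusted p = 0.00172 in non-treated cells, and 0.44 ± 0.175 (SE), adjusted p = 0.0444 in mock). Gria4 (GluA4) was at 18.9 and 20.6 FPKM at Day0 and 12.7 to 23.3 in the Day3 controls, and it was not called in either comparison.

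The AMPA subunits therefore made up different shares of their summed FPKM on the 2 days. Gria2 was 56.2 and 56.1% of the sum at Day0, 78.8 and 80.1% in non-treated, 78.7 and 77.0% in mock, 77.0 and 77.7% in NC siRNA #1 and 80.1 and 82.5% in NC siRNA #2. Gria3 was 24.4 and 24.8% at Day0 and 5.05 and 4.62% in non-treated cells. The sum itself differed less, at 98.1 and 109 FPKM at Day0 and 106 and 156 in non-treated, 109 and 94.6 in mock, 125 and 113 in NC siRNA #1 and 152 and 175 in NC siRNA #2. These shares are a description of transcripts, and no test was made of them.

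**Figure D3:**
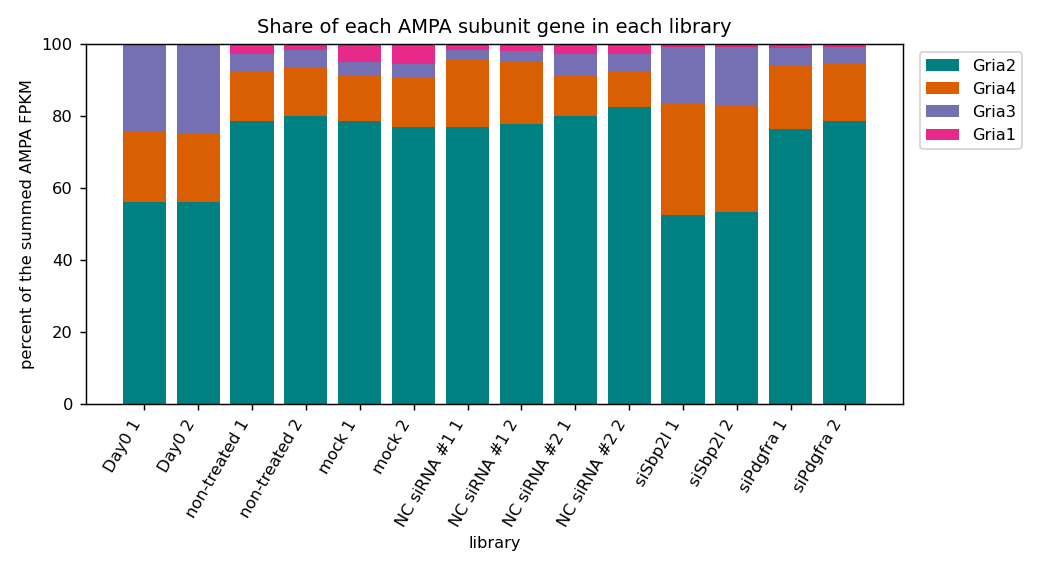
Share of Gria1, Gria2, Gria3 and Gria4 in the summed AMPA FPKM of each of the 14 libraries (bars, percent, from 0 to 100). Gria2 takes 56.1 to 56.2% at Day0, 77.0 to 82.5% in the Day3 control libraries, 52.4 to 53.2% in siSbp2l and 76.4 to 78.6% in siPdgfra.

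Of the kainate receptor genes, Grik2 rose. Grik2 (GluK2, which forms channels by itself) was at 4.25 and 4.64 FPKM at Day0, 19.1 and 30.5 in non-treated and 24.1 and 21.2 in mock cells, and it rose by 2.21 ± 0.166 (SE), adjusted p = 4.35e-07 (non-treated) and 2.12 ± 0.166 (SE), adjusted p = 6.26e-07 (mock) on the log2 scale. Grik1 (GluK1) was at 3.31 and 2.98 FPKM at Day0 and at 0.171 to 0.739 in the Day3 controls, with differences of -1.35 (non-treated) and -1.40 (mock) that are no test, for the reason given above. Grik3 (GluK3) was at 13.4 to 28.5 FPKM over the 14 libraries, Grik4 (GluK4) at 0.924 to 3.27 and Grik5 (GluK5, which needs Grik1, Grik2 or Grik3 to form a channel) at 19.4 to 39.5, and none of these was called between the days. Grik2 made up 6.35 and 7.73% of the summed kainate FPKM at Day0 and 22.7 and 40.2% in non-treated cells.

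Delta receptors bind adhesion partners across the synapse. Grid1 was at 5.25 and 5.39 FPKM at Day0, 11.7 and 10.0 in non-treated and 11.3 and 11.7 in mock cells, and its differences of 0.90 ± 0.111 (SE), adjusted p = 2.33e-05 and 0.98 ± 0.111 (SE), adjusted p = 1.2e-05 stayed just under 2-fold. Grid2ip was at 2.75 and 2.65 FPKM at Day0, 0.951 and 0.677 in non-treated and 0.876 and 1.00 in mock cells, and it was called lower in non-treated cells alone (-1.03 ± 0.110 (SE), adjusted p = 7.2e-06). That call was lost without non-treated replicate 2 (-0.92) and with median-ratio scaling (-0.97). Exons of Grid2ip share 9.52% of their bases with another gene model, and whether strand was used in counting is not given in the sources used here.

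NMDA receptors need Grin1, the subunit that binds the co-agonist glycine. Grin1 was at 1.52 and 1.32 FPKM at Day0 and 0.114 to 0.503 in the Day3 controls, with 204 and 125 fragments at Day0 and 43 and 34 in non-treated cells. Its differences were -0.75 (non-treated) and -0.90 (mock) on the log2(FPKM + 1) scale, and in FPKM the ratio to Day0 was 0.312 and 0.210. Grin1, too, passed the minimum through Day0 alone, so these values are a description, and 13.5% of its exon bases are shared with the antisense gene Grin1os. Grin3a, a glycine-binding subunit of low calcium permeability, was the most abundant NMDA transcript in all 14 libraries, at 2.83 and 3.27 FPKM at Day0 and 1.03 to 1.97 in the Day3 controls.

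None of the 4 GABA-A receptor genes tested was called higher, beside 11.4% (non-treated) and 12.2% (mock) of all genes. With 4 genes this does not set the family apart from all genes. Gabra3 (subunit alpha3) was at 2.36 and 2.40 FPKM at Day0 and 0.313 to 0.654 in the Day3 controls, with differences of -1.17 (non-treated) and -1.18 (mock), which are a description, since it passed the minimum through Day0 alone. Gabrg1 (subunit gamma1) was at 15.4 and 14.8 FPKM at Day0, 7.70 and 11.7 in non-treated, 6.67 and 6.76 in mock, 5.91 and 5.40 in NC siRNA #1 and 14.5 and 14.7 in NC siRNA #2. It was called in mock (-1.06 ± 0.151 (SE), adjusted p = 8.38e-05) and missed 2-fold in non-treated cells (-0.62 ± 0.151 (SE), adjusted p = 0.00385), and the mock call was lost with median-ratio scaling (-0.99) and with upper-quartile scaling (-0.98). All 8 control libraries lay below Day0, those of NC siRNA #2 only just. Gabra2 (subunit alpha2, -0.33 and -0.18) was not called.

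The next question was how the knockdown of Secisbp2l at Day3 bore on these genes. The 12 Day3 libraries were fitted together over 11650 genes, and siSbp2l was set against the mean of the 4 control groups. Of the 19 members tested, 1 rose (Gria3) and 2 fell (Grm7 and Gria1), beside 3.12% of all genes called higher and 4.08% called lower. By adjusted p alone 3 were higher and 7 lower, beside 35.5% and 17.9% of all genes. The median difference over the members was -0.156, and over all genes it was 0.151. With median-ratio scaling, which sets the all-gene median to 0, the members called were 1 higher and 3 lower, and the share of all called genes that were lower went from 56.7% to 74.6% (70.9% with upper-quartile scaling). Both siSbp2l libraries lay above all 8 control libraries for 4 members (Gria3, Gria4, Grin3a and Grid2ip) and below them for 5 (Gria1, Gria2, Grm5 and Grm7 among them), beside 30.8% and 13.5% of all genes. Of these, Gria1 reached 1 FPKM in control libraries alone, so that the filter fixed its direction. Grid2ip reached it in 3 Day3 libraries, 2 of them siSbp2l, and passed the minimum only through these 2. Its higher values in siSbp2l, also by adjusted p alone, are therefore a description.

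Grm7 was at 2.95 and 2.65 FPKM in siSbp2l and at 7.52, 18.3 and 24.3 in the lowest, median and highest of the 8 control libraries, a difference of -2.15 ± 0.092 (SE), adjusted p = 1.38e-07, and -2.28 with median-ratio scaling. The siSbp2l libraries lay below every control library. It was called lower against each of the 4 controls, with differences of -2.60 from the non-treated cells, -2.41 from the mock cells and -2.32 and -1.26 from the cells given NC siRNA #1 and NC siRNA #2. Grm7 was the only member called against all 4, beside 2.03% of all genes lower and 1.19% higher by that rule. Its siSbp2l level still lay above Day0, where it was at 0.0983 and 0.0957 FPKM.

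Gria3 was at 17.3 and 17.9 FPKM in siSbp2l and at 3.19, 4.78 and 8.89 in the lowest, median and highest control library, a difference of 1.58 ± 0.098 (SE), adjusted p = 1.05e-06 (1.42 with median-ratio scaling). Both values lay between the controls and Day0 (23.9 and 26.9 FPKM). It was called against 3 of the 4 controls and reached 0.96 against NC siRNA #2, and without NC siRNA #2 replicate 1 it was called against all 4, which made 2 members by that rule in place of 1. Gria1 was at 0.971 and 0.902 FPKM and at 2.01, 3.58 and 5.47 in the lowest, median and highest control library (-1.21 ± 0.081 (SE)), so that it too lay between the controls and Day0. It was called against 2 of the 4 controls, which is a description, since Gria1 passed the minimum at Day3 through control libraries alone.

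Gria4 was at 34.6 and 33.5 FPKM in siSbp2l and at 12.7 to 23.3 in the controls, which fell just short of 2-fold (0.96 ± 0.124 (SE), adjusted p = 0.000138), and its siSbp2l level was above Day0 as well. Gria2 was at 58.3 and 59.6 FPKM beside 72.9 to 144 in the controls (-0.75 ± 0.144 (SE), adjusted p = 0.00173). In consequence Gria2 made up 52.4 and 53.2% of the summed AMPA FPKM in siSbp2l, Gria4 31.1 and 29.9% and Gria3 15.6 and 16.0%, with the sum at 111 and 112 FPKM. Among the obligatory subunits, Gabbr1 was at 14.6 and 12.5 FPKM and Gabbr2 at 8.62 and 7.75, with differences of -0.033 ± 0.109 (SE), adjusted p = 0.813 and -0.18 ± 0.074 (SE), adjusted p = 0.064. Grin1 was at 0.107 and 0.0604 FPKM, or 9 and 6 fragments, and was not among the genes tested at Day3.

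The lower Grm7 and Gria1 and the higher Gria3 stood beside OL markers of which 6 of 9 were called lower in siSbp2l and none higher. Against all 4 controls 3 of these OL markers were called lower. Between the non-targeting siRNAs 4 of them were called lower in NC siRNA #2 than in NC siRNA #1, so that lower OL markers were not particular to siSbp2l. Of 9 OPC markers 2 were called higher in siSbp2l, with a median difference of 0.160 over the 9 and 0.151 over all genes. Pdgfra, 1 of these 2, was at 149.9 and 144 FPKM in siSbp2l and 32.4 to 72.1 in the controls. Of 7 neuronal markers tested, 2 were called higher and 1 lower. The part of these cell types in the receptor values was not tested.

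With siPdgfra none of the 19 members rose and 5 fell, beside 3.97% of all genes called higher and 4.03% called lower. Grm5, Grid1, Gabbr2, Gria1 and Gabrg1 were the genes that fell. Of these, Gria1 reached 1 FPKM at Day3 in control libraries alone, so that its direction was fixed by the filter. By adjusted p alone 1 member was higher (Grik3) and 14 lower, beside 32.4% and 23% of all genes. The median difference was -0.755 over the members and 0.089 over all genes, and it was -0.855 and 0 with median-ratio scaling, under which the share of all called genes that were lower went from 50.4% to 61.2% (60.1% with upper-quartile scaling). Both siPdgfra libraries lay below all 8 control libraries for 10 members and above them for 1 (Grik3), beside 17.5% and 26.5% of all genes. Among the 10 were Gria1, Gabra2, Gabrg1, Gabbr1, Gabbr2, Grid1, Grik4, Grik5 and Grm5.

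Grm5 was at 2.34 and 2.18 FPKM in siPdgfra and at 7.10, 10.4 and 16.3 in the lowest, median and highest control library, a difference of -1.77 ± 0.147 (SE), adjusted p = 7.2e-06. Grid1 was at 3.76 and 3.14 FPKM beside 10.0 to 12.7 in the controls (-1.50 ± 0.093 (SE), adjusted p = 1.08e-06), and this was below its Day0 level as well. Grm5 and Grid1 were called lower against each of the 4 controls, and they were the only members so called, beside 1.84% of all genes lower and 1.77% higher by that rule. Gabbr2 was at 3.27 and 3.33 FPKM beside 5.30 to 13.2 in the controls (-1.27 ± 0.074 (SE), adjusted p = 7.08e-07), and its smallest difference was against NC siRNA #1 (-0.56). Its partner Gabbr1 was at 6.74 and 8.78 FPKM beside 11.7 to 14.9 and stayed under 2-fold (-0.78 ± 0.109 (SE), adjusted p = 0.000226).

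Among GABA-A subunit genes, Gabrg1 and Gabra2 were lower in siPdgfra by adjusted p, and Gabrg1 also by 2-fold. Gabrg1 was at 3.58 and 3.28 FPKM and at 5.40 to 14.7 in the controls (-1.11 ± 0.127 (SE), adjusted p = 5.76e-05), and Gabra2 at 0.820 and 0.774 beside 0.877 to 1.79 (-0.35). Kainate genes divided, with Grik4 (-0.87) and Grik5 (-0.75) lower and Grik3 higher (0.48) by adjusted p. The Grik3 difference was 0.89 against NC siRNA #1, 0.67 against NC siRNA #2 and 0.28 against non-treated cells. Against mock it was 0.074 (limma, adjusted p = 0.579), at 27.5 and 26.9 FPKM in siPdgfra beside 25.2 and 26.4 in mock. Gria1 was at 0.941 and 0.889 FPKM (-1.23 ± 0.081 (SE)), which is a description, since it passed the minimum at Day3 through control libraries alone. Gria1 and Gabrg1 were each called against 2 of the 4 controls, and their differences against NC siRNA #1 were -0.69 and -0.59. Gria2 made up 76.4 and 78.6% of the AMPA sum.

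Astrocyte markers moved with these genes in siPdgfra, where all 7 tested were lower by adjusted p and 4 of them were called. Their defining members Gfap, Aldoc and Slc1a2 had means of 18.0, 10.4 and 6.66 FPKM in siPdgfra beside 37.8 to 76.5, 29.2 to 46.5 and 12.8 to 20.0 FPKM over the control groups, while Gja1 and Aqp4 stayed under 1 FPKM in every library. Of 9 OPC markers 2 were called lower, but 1 of these was Pdgfra, the target of the siRNA, whose fall does not bear on cell type. By adjusted p alone 2 of the 9 OPC markers were higher and 4 lower. Of 9 OL markers 2 were called lower. The part of these cells in the receptor values was not tested.

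**Figure D4:**
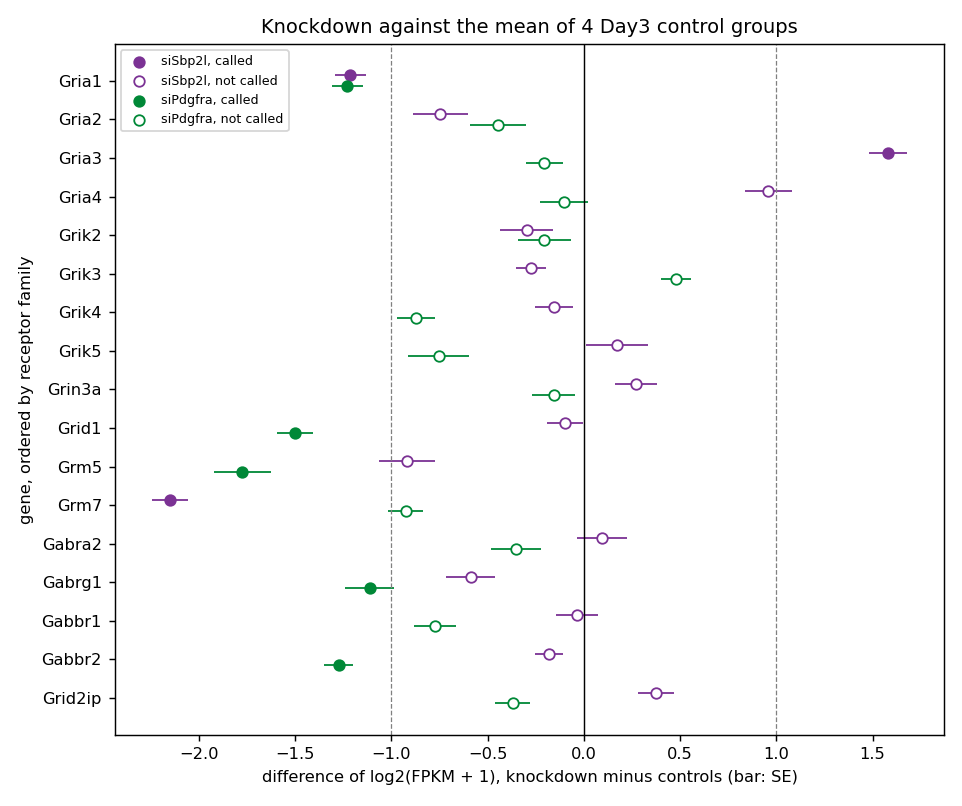
Difference of log2(FPKM + 1) between each knockdown and the mean of the 4 Day3 control groups for 17 of the 19 members tested, siSbp2l in purple and siPdgfra in green, with bars for the SE. Filled points are called, dashed lines mark 2-fold, and most green points lie left of 0 while the purple points lie on both sides. Both sets use the same control libraries.

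Set directly against each other, without the controls, siSbp2l was higher than siPdgfra for 5 members and lower for 1, beside 6.94% of all genes called higher and 6.73% called lower. By adjusted p alone it was 13 higher and 2 lower, beside 28.5% and 23.4%, and the former became 10 with median-ratio scaling. Grid2ip passed the minimum at Day3 only through siSbp2l, so any difference of Grid2ip here is a description. Gria3 differed most (1.78 ± 0.124 (SE), adjusted p = 2.39e-06), and Grid1 (1.40 ± 0.118 (SE), adjusted p = 7.78e-06), Gabbr2 (1.09 ± 0.094 (SE), adjusted p = 8.42e-06) and Gria4 (1.06 ± 0.156 (SE), adjusted p = 0.000311) were also called. The Gria4 call was lost with median-ratio scaling (0.99) and without siPdgfra replicate 1 (0.9956). Grm7 was lower in siSbp2l than in siPdgfra (-1.22 ± 0.117 (SE), adjusted p = 1.73e-05), although it was below the control mean in both, and in siPdgfra its difference against NC siRNA #2 alone was -0.032. For Gria1 the difference between the knockdowns was 0.016 ± 0.102 (SE), adjusted p = 0.908, and its sign turned with median-ratio scaling (-0.015). Grm5 stayed under 2-fold (0.85 ± 0.186 (SE), adjusted p = 0.00347).

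**Figure D5:**
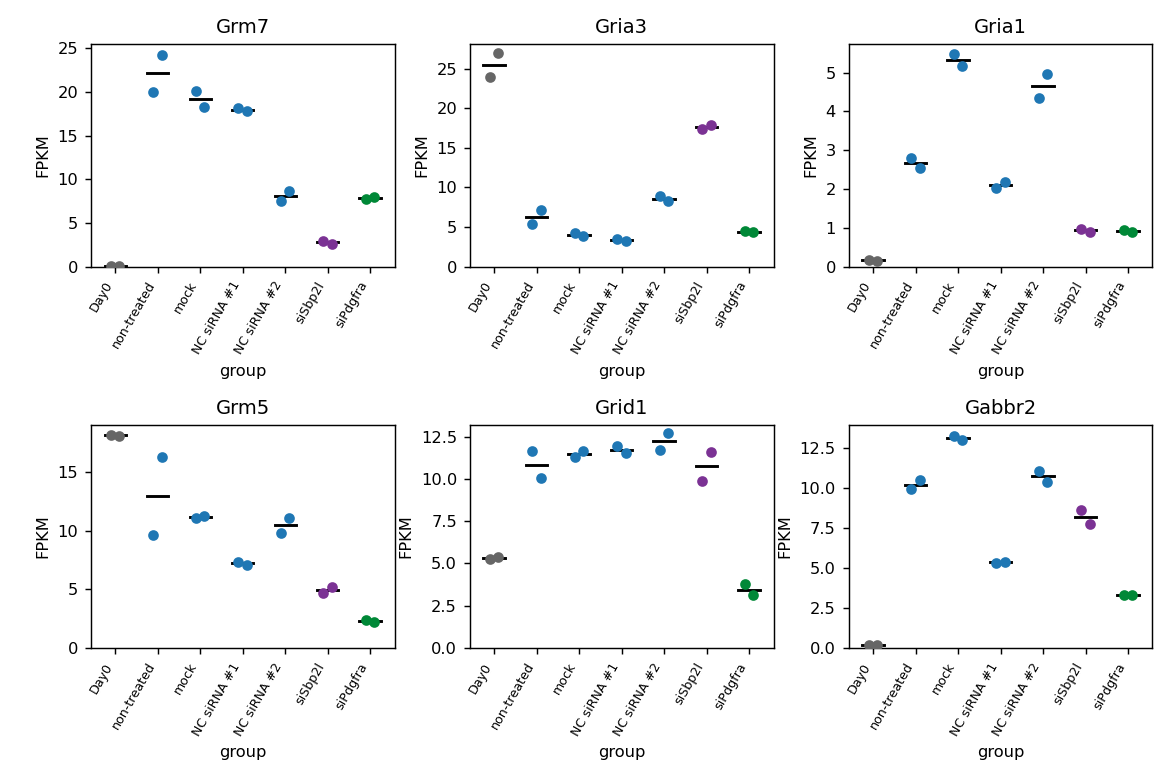
FPKM of Grm7, Gria3, Gria1, Grm5, Grid1 and Gabbr2 in each of the 14 libraries (points) with the group mean (line, n = 2), on linear axes from 0. Grm7 is lowest at Day3 in siSbp2l, Gria3 is higher there than in any other Day3 group, and Grm5, Grid1 and Gabbr2 are lowest at Day3 in siPdgfra.

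The control groups gave the background of these differences. Between NC siRNA #2 and NC siRNA #1, 3 of 19 members were called, beside 3.99% of all genes, and all 3 were also among the genes called in a knockdown, namely Gria3 (1.15 ± 0.124 (SE), adjusted p = 0.000129), Gabrg1 (1.23 ± 0.160 (SE), adjusted p = 0.000444) and Grm7 (-1.07 ± 0.117 (SE), adjusted p = 0.000135). The last of these missed 2-fold without NC siRNA #2 replicate 1 (-0.98). Between mock and non-treated cells limma called 0 of 19 members, beside 0.00858% of all genes, and 6 had an unadjusted p under 0.05. By adjusted p alone 1 member passed, Gria1 (0.79 ± 0.102 (SE), adjusted p = 0.029), as did 25 of all 11650 genes. Gria1 (0.87) and Gabbr2 (0.89) also passed the adjusted p between the non-targeting siRNAs without reaching 2-fold. Leaving out the non-treated libraries, a check chosen after the data were seen, gave 3 members called for siSbp2l and 5 for siPdgfra, as with all 4 control groups.

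Other genes of glutamate and GABA signalling were followed by lists of 87 genes, of which 59 were tested. The groups through which each of these passed the minimum are not given here. A direction fixed by the filter is therefore not marked among them. Between Day0 and Day3, 11 were called higher and 6 lower in non-treated cells, and 12 and 6 in mock, beside 11.4% and 15.2% of all genes in the former and 12.2% and 14% in the latter. The risen ones held Plcl1 (4.07 in non-treated cells and 3.78 in mock), which binds GABA-A receptors, the scaffold Dlg1 (2.83 and 2.65), the AMPA receptor partners Shisa9 (2.77 and 2.58) and Olfm1 (2.47 and 2.67), and the transporter Slc1a1 (EAAC1 for glutamate, 2.05 and 1.83), with Abat, the enzyme that degrades GABA (2.60 and 2.47). The fallen ones held auxiliary subunits that accompany AMPA and kainate receptors, namely Cacng8 (-2.44 and -2.09), Neto1 (-2.19 and -2.23), Shisa6 (-1.49 and -1.62) and Cnih2 (-1.41 and -1.55). Of the 15 auxiliary subunits tested, 2 rose and 5 fell in each comparison, beside the same shares of all genes, and the median was -0.682 and -0.365, beside -0.116 and -0.070 over all genes.

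In the knockdowns 4 of the 59 were called higher and 6 lower with siSbp2l, beside 3.12% and 4.08% of all genes, and 1 higher and 12 lower with siPdgfra, beside 3.97% and 4.03%. By adjusted p alone 20 were higher and 17 lower with siSbp2l, beside 35.5% and 17.9% of all genes, and 11 and 29 with siPdgfra, beside 32.4% and 23%. Their median differences were 0.099 and -0.285, beside 0.151 and 0.089 over all genes. Against all 4 controls, siSbp2l gave Neto1 (1.45 against the control mean) and Dlg2 (1.50) as higher and, among 3 lower genes, Plcl1 (-1.46) and Dlg1 (-1.41), and siPdgfra gave Cnih3 (2.78) as higher and, among 5 lower genes, Neto2 (-1.53), Plcl1 (-1.52), Neto1 (-1.26) and Gabarapl2 (-1.17). Dlg2, Neto2 and Gabarapl2 were named after their values were seen. Neto1, an auxiliary subunit of kainate receptors, was thus higher with siSbp2l and lower with siPdgfra, and the direct difference was 2.70 ± 0.136 (SE), adjusted p = 4.49e-07. Of the 5 transporters tested, 4 were called lower with siPdgfra (Slc1a1, Slc1a2 and Slc1a3 among them), and Slc1a2 is also on the astrocyte list.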

How the data were processed

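Messenger RNA was sequenced from 14 libraries in 7 groups of 2, described in the methods as independent cultures. The authors processed paired-end reads in OmicSoft ArrayStudio (aligner and counting settings not given in the sources used here) with gene models of mm10 refGene, and the deposited values are FPKM, named counts by the submitters although they have decimals. The submitters' notes also name DESeq2, whose fold changes and p-values were deposited in a further file and were not used. FPKM is scaled by exon length and library total, so a few abundant transcripts shift all others. Low values fall on steps worth 1 fragment, which gave each library's depth, with 88.8 to 92.5% of low values of single-transcript genes within 0.1 of a whole fragment. Intervals from counting cover counting error only.

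Genes were tested if 2 or more fitted libraries reached 1 FPKM. The values, as log2(FPKM + 1), were passed to limma 3.58.1 under R 4.3.3 with a mean per group, intensity trend and robust moderation (7 residual degrees of freedom with 14 libraries, 6 with 12), and Benjamini-Hochberg adjustment over all genes. The count test planned for counts was replaced, since the values are FPKM. The procedure was tested on simulated data with equal spread in every library, which does not cover the wider spread of the non-treated pair. Groups and replicate numbers came from the labels, by which columns were matched. Genes were named if they passed the minimum, with full statistics for those called and for Grin1, Gria2, Gabbr1 and Gabbr2, and other pathway genes if called in common against 4 controls or in both Day3 comparisons, at most 12. For members, no adjusted p is given where the filter fixed the direction of a call. Some members and pathway genes are counted but not reported here by name. Members and lists were chosen with earlier results of these data known. Exon overlap was taken from GENCODE and promoters from RefSeq.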

Additional observations from a re-analysis of the deposited data

Results flagged for a closer look

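The effects of the knockdowns differed by the direct test for the 5 members named here. On the log2(FPKM + 1) scale siSbp2l exceeded siPdgfra by 1.78 for Gria3 (1.58 and -0.20 against the control mean), 1.40 for Grid1 (-0.10 and -1.50), 1.09 for Gabbr2 (-0.18 and -1.27) and 1.06 for Gria4 (0.96 and -0.10), and it was lower by a difference of -1.22 for Grm7 (-2.15 and -0.93). The adjusted p of limma was 2.39e-06, 7.78e-06, 8.42e-06, 0.000311 and 1.73e-05 in that order. The 5 were taken by this same test, so these values add no support to it. Gria3, Grm7 and Gabbr2 also differed between the non-targeting siRNAs by adjusted p, Gabbr2 by less than 2-fold (0.89).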

How the results depend on the processing

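A called gene in a comparison gave 37 differences, and of 863 values under the alternatives 831 kept direction and threshold, 32 kept direction but missed 2-fold, and none reversed. In many of the 863 the library left out was not part of the comparison, so that the fold change could not move. The same holds for settings that alter the estimate of spread alone. The 831 are therefore no measure of stability. Without either Day0 replicate Grik1 and Gabra3 were no longer tested, and these lost calls are not among the 863. Adding 5 in place of 1 before the logarithm accounted for 24 of the 32, as a larger added value shrinks the differences of low genes by construction. With it the members called were 4 (non-treated) and 5 (mock) against Day0, 1 for siPdgfra, 1 between the knockdowns, 0 between the non-targeting siRNAs, and 0 in common against all 4 controls for siSbp2l and 0 for siPdgfra. Adding 0.1 gave 3 (siSbp2l) and 4 (siPdgfra) in common. Leaving out 1 library at a time gave 8 to 11 (non-treated) and 8 to 12 (mock) members against Day0, 3 to 4 for siSbp2l, 5 to 5 for siPdgfra, 5 to 6 between the knockdowns, 2 to 3 between the non-targeting siRNAs, 0 to 0 for mock against non-treated, and 1 to 2 (siSbp2l) and 2 to 2 (siPdgfra) in common, with 2 for siSbp2l without NC siRNA #2 replicate 1. A group left with 1 library was assumed to vary like the others. Replicate numbers did not line up across groups, as the correlation of replicate differences between groups ran from -0.380 to 0.473. Whether libraries of different groups shared a culture under other numbers was not tested. A replicate block gave 10 and 10 members against Day0, 3 for siSbp2l, 5 for siPdgfra, 6 between the knockdowns, and 1 and 2 in common, and it changed none of the 37 calls. With 2 libraries a group, p-values rest on the spread pooled over groups, and members under 1 FPKM could not be tested.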
